A study of Mus musculus with 3 samples.

Results

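The 39 genes described here encode the machinery that carries glucose into the cell, breaks it down to pyruvate and lactate, or diverts it into the pentose phosphate pathway, together with 2 regulators of these routes. They were chosen as named genes of these pathways, with earlier results of these data known, and each symbol was matched through GENCODE M21 to 1 gene ID among the 55536 genes of the deposited gene tables. The cells were primary mouse cells labelled as activated regulatory T cells, CD4 T cells that restrain immune responses under the transcription factor Foxp3. They came from 1 biosample, labelled male, adult and 9 weeks of age. The strain was Foxp3GFP-DTRCD4CreERT2R26tdTomato, whose name lists a Foxp3 allele with GFP and DTR, a CD4 CreERT2 allele and a R26 tdTomato allele. Polyadenylated RNA was sequenced in 3 libraries numbered technical replicates 1, 2 and 3 of 1 biological replicate. No resting, untreated or other cells belong to this group, so no condition was compared. SDs below cover the spread among libraries made from 1 biosample and nothing wider, and the p-values, from a chi-square test that takes reads as independent, set the differences between libraries against counting error only. No agent of activation is named in the labels. The labels record the source as the whole organism and do not say whether recombination had been induced.

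Glycolysis turns glucose into pyruvate in the cytosol, and lactate dehydrogenase then either makes lactate, which leaves the cell through monocarboxylate transporters, or works in reverse. The pyruvate dehydrogenase complex instead passes pyruvate to the mitochondria, and its kinases switch the complex off. Many of the steps can be run by several isoenzymes, products of separate genes that differ in regulation and in the tissues that use them, and activated T cells are known for high glycolytic flux. The pentose phosphate pathway branches off at glucose-6-phosphate and yields NADPH and ribose for nucleotides.

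Estimated counts summed over genes came to 20783676 (replicate 1), 21206219 (replicate 2) and 18496690 (replicate 3). A count of 0 allows up to 3 counts, or 0.144, 0.141 and 0.162 CPM (counts scaled to the same library total), and covers counting error only. All 7 of 7 regulatory T cell markers reached 1 TPM (a level scaled to transcript length and to a fixed library total) in every library, with Foxp3 between 83.0 and 96.4 TPM. Of the markers of other cells, erythroid ones were the most abundant, with summed levels of 917, 1280 and 1155 TPM in replicates 1, 2 and 3, most of it globin RNA, and the globin genes Hba-a2, Hbb-bs and Hba-a1 (391, 379 and 253 TPM) were above Foxp3 (90.1 TPM). The lists for myeloid cells, B cells, and CD8 T and NK cells summed to between 20.6 and 55.1 TPM in any library. In bulk RNA, fewer cells of a type and less RNA per cell cannot be told apart.

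Of the 39 genes, 37 reached 1 TPM in every library, against 47.3% of 22028 protein-coding genes. Together the 39 genes held 0.758, 0.657 and 0.736% of all TPM in replicates 1, 2 and 3. Their median was 75.6 TPM, beside 26.1 TPM for the 10425 protein-coding genes detected by the same threshold and 0.810 TPM for all protein-coding genes. By mean level, 17 genes were at 100 TPM or more, 14 between 10 and 100 TPM, 7 between 1 and 10 TPM and 1 below 1 TPM. In the order of the 39 genes by mean level, 25 of the 38 neighbouring pairs had overlapping ranges over the libraries, so that the order within those pairs is not resolved.

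**Figure D1:**
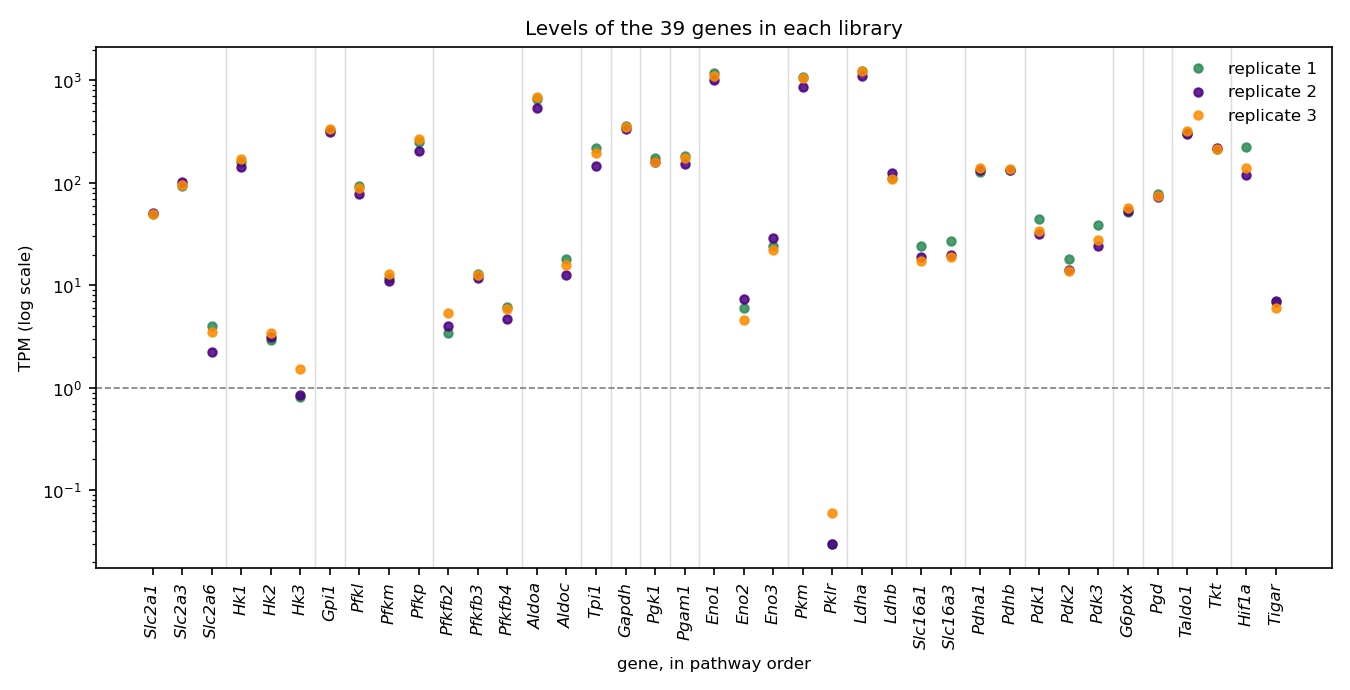
TPM of each of the 39 genes on a log axis, in pathway order, with 1 point per library and the dashed line at 1 TPM. Ldha, Eno1 and Pkm stand at the top near 1000 TPM, and Pklr lies below the line in all 3 libraries.

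The exons of Pkm that separate its named enzyme forms are shown first, since the split between them is an isoform choice within 1 step. Pyruvate kinase makes the last ATP of glycolysis, and Pkm encodes a muscle-type form (M1) or the M2 form, which is common in proliferating cells, by including 1 of the mutually exclusive exons. The M1 exon, in transcript Pkm-202, lies at chr9:59675029-59675195 (mm10, plus strand), and the M2 exon, in Pkm-201, at chr9:59675568-59675734, within the coding part of the gene. Both exons are 167 bases long and are the ninth exon of their transcripts. Aligned without gaps, they differ at 64 bases (61.7% identical), which are in capitals below.
Pkm-202 exon (M1): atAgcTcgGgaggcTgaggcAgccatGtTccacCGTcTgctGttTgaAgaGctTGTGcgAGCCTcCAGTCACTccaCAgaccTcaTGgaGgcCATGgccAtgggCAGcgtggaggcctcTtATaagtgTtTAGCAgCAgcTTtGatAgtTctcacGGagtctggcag
Pkm-201 exon (M2): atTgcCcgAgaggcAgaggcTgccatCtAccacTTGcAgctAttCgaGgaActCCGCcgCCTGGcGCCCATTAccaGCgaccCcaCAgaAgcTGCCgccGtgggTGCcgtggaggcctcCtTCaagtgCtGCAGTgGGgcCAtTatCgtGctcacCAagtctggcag
Pkm-201 held 91.7, 90.5 and 93.9% of the TPM of Pkm in replicates 1, 2 and 3 (92.1 ± 1.71%, SD, n = 3). Pkm-202 held 6.40, 6.74 and 4.42%. The M2 transcript was therefore the higher one in each library, with no overlap. As estimated counts, the M2 transcript had 30957, 25983 and 28079 and the M1 transcript 1805, 1617 and 1104. The 2 annotated transcripts also end at different positions at both ends, and the counts are estimates that divide reads among 11 annotated transcripts of Pkm.

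Glucose transporter RNA came mostly from Slc2a3 and Slc2a1, which encode the high-affinity transporter GLUT3 and the widely expressed GLUT1. Slc2a3 was at 93.9, 101 and 95.8 TPM in replicates 1, 2 and 3 and Slc2a1 at 49.9, 51.3 and 49.5 TPM. The ranges do not overlap, and Slc2a3 was 1.93 times as high (log2 ratio 0.95 ± 0.03, SD, n = 3; ratios here and below are of TPM + 0.1). Slc2a6, a transporter of lysosomal membranes, was at 3.97, 2.22 and 3.48 TPM, lowest in replicate 2. It lay below Slc2a8 and Slc2a9, related transporters outside the 39 genes, at 6.29 ± 0.974 and 5.62 ± 0.443 TPM. The muscle and fat transporter gene Slc2a4 had 2, 3 and 2 counts, and Slc2a5, which encodes a fructose transporter, had none.

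Hexokinase phosphorylates glucose and so traps it in the cell. Hk1, the form found in most tissues, was at 161, 142 and 170.0 TPM in replicates 1, 2 and 3, whereas Hk2, the form often linked to proliferation and insulin response, was at 2.90, 3.15 and 3.40 TPM. The ranges are far apart in every library, with a log2 ratio of 5.60 ± 0.15 (SD, n = 3), and Hk1 held 97.3 ± 0.222% of hexokinase TPM. Hk3, a form of myeloid cells, had 33, 32 and 30 counts and stayed under 1 TPM in replicates 1 and 2 (0.820, 0.860 and 1.52 TPM). Beside it, 6 of 10 myeloid markers reached 1 TPM in every library, the list summed to 45.9, 31.4 and 47.5 TPM, and the neutrophil gene S100a8 had no count in any library; the part of such cells in the Hk3 level was not tested. The ADP-dependent kinase gene Adpgk, outside the 39 genes, was at 6.77 ± 1.17 TPM, above Hk2.

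Hk1 RNA was split between Hk1-201 and Hk1-202, protein-coding transcripts that start from different first exons. Hk1-201 held 47.1, 43.0 and 46.9% of Hk1 TPM and Hk1-202 held 45.8, 45.9 and 41.2%. By TPM their order changed between libraries. By estimated counts, which are not scaled to length, Hk1-202, the longer transcript, was ahead in each library, with 4112, 3803 and 3494 against 3595, 3029 and 3379. Hk1-202 opens with 1 first exon of 530 bases at chr10:62340013-62340542 (minus strand), and Hk1-201 with exons of 27 and 48 bases at chr10:62358336-62358362 and chr10:62353058-62353105. Hk1-201 also has an exon of its own in the body of the gene, 69 bases at chr10:62291975-62292043, shown because it is the internal exon that tells it from Hk1-202.
Hk1-201 exon: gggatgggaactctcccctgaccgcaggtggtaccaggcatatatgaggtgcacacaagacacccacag

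Glucose-6-phosphate isomerase has a single gene, Gpi1, which was at 325, 311 and 338 TPM in replicates 1, 2 and 3. Phosphofructokinase, the main control point of glycolysis, is built from platelet (Pfkp), liver (Pfkl) and muscle (Pfkm) type subunits. Pfkp was at 249, 204 and 265 TPM, Pfkl at 93.9, 77.3 and 89.6 TPM and Pfkm at 11.8, 10.9 and 13.0 TPM. The 3 ranges are separate, and both of the larger genes were lowest in replicate 2. Pfkp held 70.7 ± 1.21% of the subunit TPM, Pfkl 25.8 ± 1.20% and Pfkm 3.53 ± 0.206%.

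The PFKFB enzymes set the level of fructose-2,6-bisphosphate, an activator of phosphofructokinase, and none of their genes was abundant. Pfkfb3, a form with high kinase activity, was at 12.9, 11.8 and 12.7 TPM in replicates 1, 2 and 3. Pfkfb4 was at 6.12, 4.70 and 5.93 TPM and Pfkfb2 at 3.42, 4.02 and 5.37 TPM. Pfkfb3 lay above both in every library and was 2.22 times Pfkfb4, while the ranges of Pfkfb4 and Pfkfb2 overlap. Pfkfb1, outside the 39 genes and known as a liver and muscle form, was at 5.24 ± 0.435 TPM, between them. Tigar, a phosphatase that lowers fructose-2,6-bisphosphate and favours the pentose phosphate pathway, was at 6.86, 7.02 and 5.96 TPM.

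In the middle and lower part of glycolysis 1 gene dominated each step. Aldolase A (Aldoa), which splits fructose-1,6-bisphosphate, was at 664, 540.4 and 682 TPM in replicates 1, 2 and 3, and Aldoc, a form prominent in brain, at 18.1, 12.7 and 16.0 TPM. Aldoa held 97.6 ± 0.213% and was lowest in replicate 2. Tpi1, which encodes triosephosphate isomerase, was at 220, 146 and 194 TPM, lowest in replicate 2. Gapdh, which oxidises glyceraldehyde-3-phosphate, was at 363, 332 and 352 TPM, and its sperm counterpart Gapdhs had 9.01, 3.24 and 2.30 counts. Pgk1, which encodes the first ATP-producing enzyme, was at 174, 158 and 161 TPM, and the testis form Pgk2 had 0, 0 and 2 counts.

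Phosphoglycerate mutase RNA came from Pgam1, at 182, 154 and 174 TPM, with the muscle form Pgam2 at 3.96 ± 0.463 TPM. Bpgm, which makes 2,3-bisphosphoglycerate, a regulator of haemoglobin, was at 27.7 ± 3.22 TPM beside the erythroid RNA described above, and the part of erythroid cells in its level was not tested. Enolase, which forms phosphoenolpyruvate, was represented by Eno1 at 1191, 1011 and 1100.1 TPM. Eno3, the muscle form, was at 24.3, 29.0 and 22.4 TPM and Eno2, the neuronal form, at 6.03, 7.32 and 4.61 TPM. The ranges of Eno1 and Eno3 are far apart, with a log2 ratio of 5.45 ± 0.29 (SD, n = 3), and replicate 2 had the lowest Eno1 and the highest Eno3.

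Pkm as a whole was at 1072, 869 and 1064 TPM in replicates 1, 2 and 3, lowest in replicate 2. Pklr, the pyruvate kinase gene of liver and red cells, had 1, 1 and 2 counts, at or under 0.0600 TPM. Beside Pklr, 8 of 10 erythroid markers reached 1 TPM in every library, led by Hba-a2 at 391 ± 54.9 TPM, while the erythroid transcription factor gene Klf1 stayed at 0.660 to 0.880 TPM; the part of such cells was not tested.

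Lactate dehydrogenase is a tetramer of A and B subunits, of which A is associated with making lactate. Ldha, at chr7:46841475-46855627, had the highest mean of the 39 genes and ranked 85 among protein-coding genes, at 1245, 1110.1 and 1231 TPM in replicates 1, 2 and 3. Ldhb was at 111, 126 and 110.1 TPM, highest in the library where Ldha was lowest. Ldha held 91.8, 89.8 and 91.8% of the summed level and was 10.3 times Ldhb (log2 ratio 3.37 ± 0.20, SD, n = 3). Ldhc, the testis form, had no count. The ranges of Ldha, Eno1 and Pkm overlap, so the order of the 3 highest genes is not resolved by these libraries.

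RNA of the lactate transporters did not show a leader. Slc16a3 and Slc16a1 encode the monocarboxylate transporters MCT4 and MCT1, the first of which is typical of highly glycolytic cells. Slc16a3 was at 27.1, 19.7 and 19.0 TPM and Slc16a1 at 24.0, 18.9 and 17.2 TPM in replicates 1, 2 and 3. Both were highest in replicate 1 and their ranges overlap, with a log2 ratio of 0.12 ± 0.06 (SD, n = 3). On estimated counts without scaling to length the order turned, with a log2 ratio of -0.91. Bsg and Emb, which encode chaperones of these transporters, were at 246 ± 23.0 and 141 ± 13.0 TPM, and the related transporter gene Slc16a6 was at 18.9 ± 3.55 TPM.

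For the step into mitochondria, Pdha1 and Pdhb encode both subunits of the E1 enzyme of pyruvate dehydrogenase, which work together in equal number. Pdha1 was at 129, 133 and 140.0 TPM and Pdhb at 133, 133 and 135 TPM. Their ranges overlap. Of the kinases that inhibit this complex, Pdk1 was at 44.2, 31.9 and 34.2 TPM, Pdk3 at 39.2, 24.4 and 27.6 TPM and Pdk2 at 18.0, 14.1 and 13.8 TPM. All 3 kinases were highest in replicate 1, Pdk1 led Pdk3 in each library with overlapping ranges (log2 ratio 0.29 ± 0.11, SD, n = 3), and Pdk2 lay below both. With protein-coding transcripts alone Pdk1 (7.94 TPM) was below both Pdk3 (29.8 TPM) and Pdk2 (13.8 TPM). In the smaller count table described below, not scaled to length, the log2 ratio of Pdk1 to Pdk3 was -0.38. On estimated counts without scaling to length it was 0.74. Pdk4, a kinase induced by fasting in other tissues, had 0, 0 and 1 counts.

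In the pentose phosphate pathway, the highest library exceeded the lowest by at most 1.12 times in CPM for each of the 4 genes. G6pdx, which encodes the enzyme that commits glucose-6-phosphate to the pathway, was at 52.2, 52.9 and 56.3 TPM, and Pgd, which encodes the second NADPH-producing enzyme, at 78.7, 73.6 and 74.5 TPM. Of the reversible, non-oxidative arm, transaldolase (Taldo1) was at 306, 298 and 319 TPM and transketolase (Tkt) at 215, 219 and 216 TPM. Taldo1 and Tkt thus lay above G6pdx and Pgd in every library, whereas with protein-coding transcripts alone Tkt (36.3 TPM) lay below Pgd (70.3 TPM) and G6pdx (50.9 TPM). Rpe and Rpia, also of the reversible arm but outside the 39 genes, were at 52.4 and 2.63 TPM, below Pgd. H6pd, which encodes the counterpart of G6pdx in the endoplasmic reticulum, was at 2.06 ± 0.295 TPM, and Tktl1 at 1.27 ± 0.257 TPM. The other 5 genes of the pathway that were examined all reached 1 TPM, from Rpia, ribose-5-phosphate isomerase, to 68.1 TPM for Prps2, which makes the precursor of nucleotides.

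**Figure D2:**
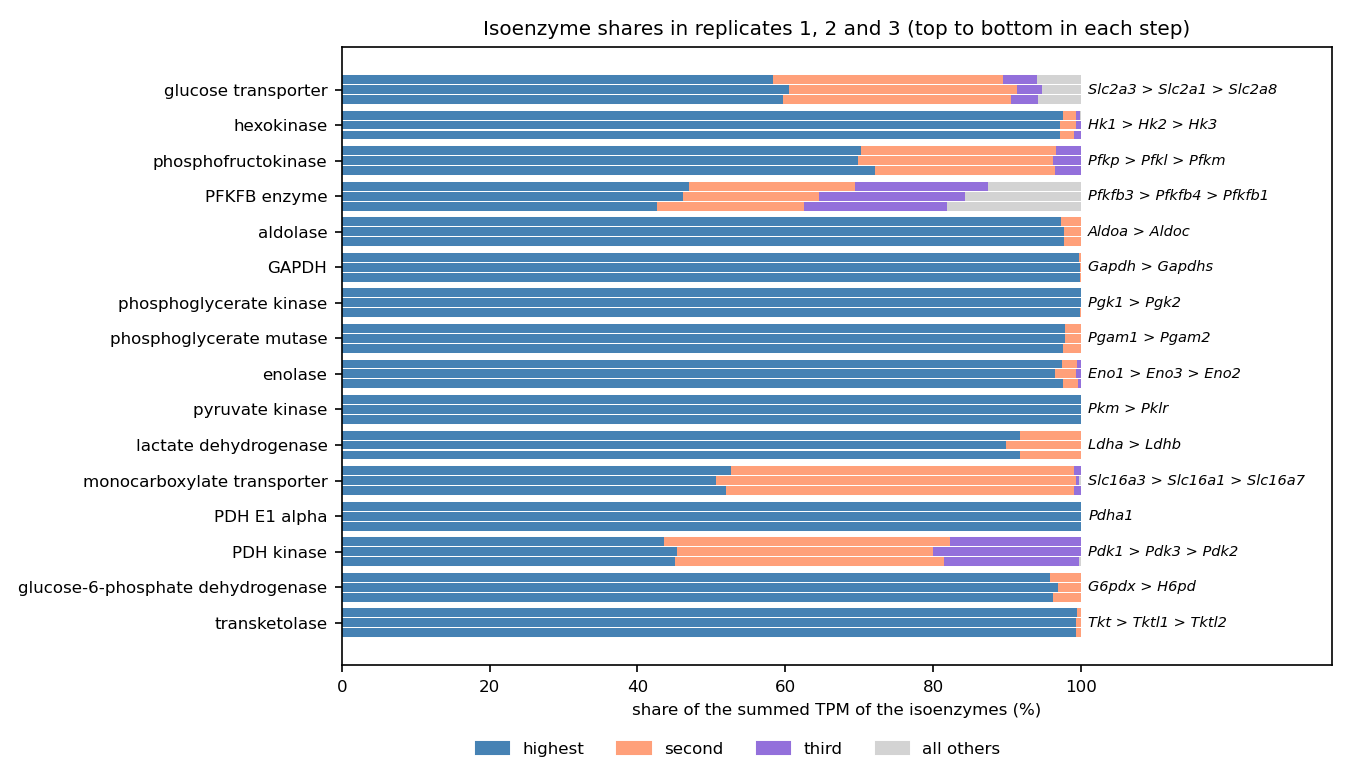
Share of the summed TPM of each step's isoenzymes held by the 3 highest genes and by all others, with 1 bar per library from replicate 1 at the top to replicate 3. At 11 of the 16 steps 1 gene held 90% or more, and glucose transport, phosphofructokinase, PFKFB enzymes, monocarboxylate transport and pyruvate dehydrogenase kinases were divided. Bpgm, Adpgk and Slc16a6 are not counted in these shares.

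Across the 16 families with more than 1 gene, the leading gene held 90% or more of the summed level at 11. The families leave out some relatives described above, among them Bpgm, Adpgk and Slc16a6, and the shares and second genes depend on this. Bpgm (27.7 TPM) was above Pgam2 (3.96 TPM), and Adpgk (6.77 TPM) above Hk2 (3.15 TPM). Slc16a6 was at 18.9 TPM, beside 21.9 TPM for Slc16a3 and 20.0 TPM for Slc16a1. A ratio to the second gene could be formed at 12, and the leader was ahead in all 3 libraries at each of these 12. At 4 families the second gene had fewer than 30 counts over the libraries, and no ratio was formed. Only the monocarboxylate transporters and the pyruvate dehydrogenase kinases had overlapping ranges of the first and second gene. Of 34 related isoenzymes, transporters and partners outside the 39 genes, 11 reached 1 TPM in every library, and 7 had no count at all.

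Part of these levels came from transcripts that GENCODE does not annotate as protein coding. The median share of TPM in protein-coding transcripts was 93.0%, and 21 of the 39 genes had 90% or more, but 5 had less than 50%. Tkt had the lowest share, 16.8 ± 1.99% (SD, n = 3), and its leading transcript, Tkt-209, with 68.7, 63.0 and 66.1% of its TPM, is annotated as a processed transcript. Pdk1 had 21.6 ± 0.366%, with Pdk1-208 in the lead, Slc2a1 37.9 ± 1.70%, with the nonsense-mediated decay transcript Slc2a1-204 in the lead, Gpi1 43.5 ± 2.10% and Eno2 44.0 ± 12.7%. With protein-coding transcripts alone, an alternative chosen after the data were seen, Pdk1 fell behind Pdk3, with a log2 ratio of -1.88, and the lead of Slc2a3 over Slc2a1 widened to a log2 ratio of 2.27. In that count, Pdk1 was at 9.39, 7.01 and 7.43 TPM and Pdk3 at 38.3, 24.2 and 27.0 TPM. Shares of transcripts are estimates from short reads, and short transcripts weigh more in TPM than in counts: Gpi1-207, of 933 bases, held 27.7% of the TPM of Gpi1 and 13.9% of its counts.

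**Figure D3:**
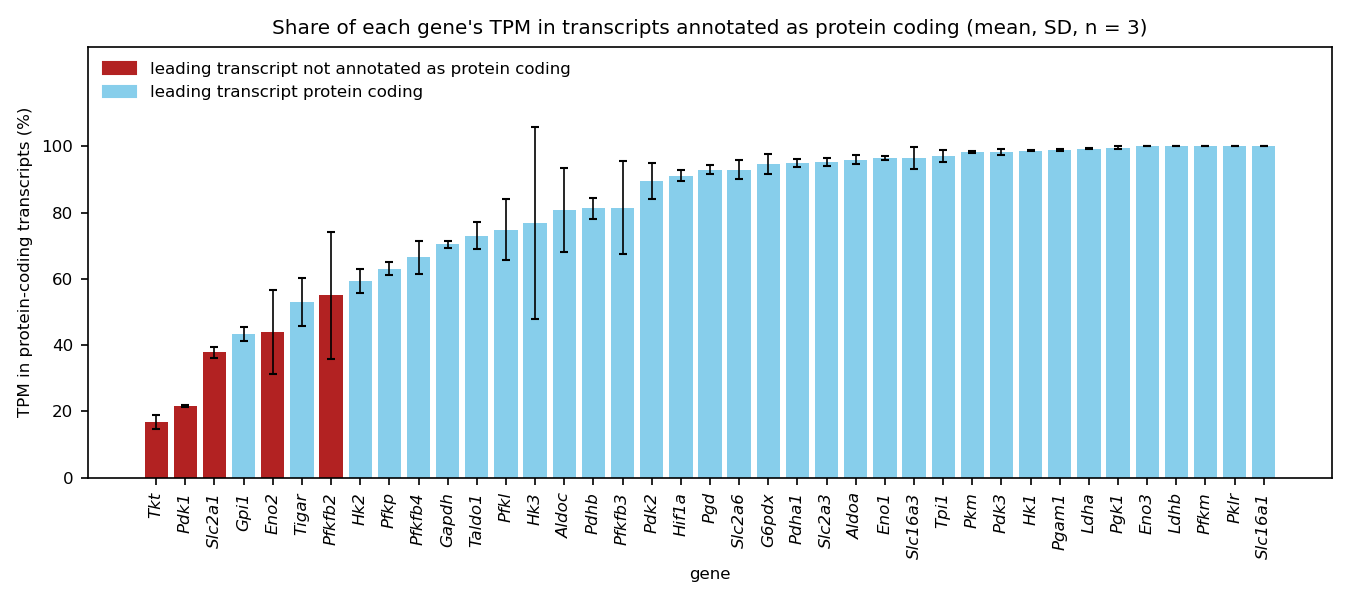
Share of each gene's TPM in transcripts annotated as protein coding (bars, mean over 3 libraries; lines, SD). The 5 bars in red mark genes whose leading transcript has another annotation, with Tkt lowest at 16.8% and Pdk1 next at 21.6%.

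Several of the enzymes have processed copies elsewhere in the genome, so it was counted how many 50-base windows of each gene's leading transcript recur exactly in transcripts of other genes. The highest share was 90.4% for Gapdh, whose windows recur in 222 other genes, followed by 72.2% for Eno1, 68.0% for Pgk1, 41.5% for Pgam1, 34.4% for Pkm and 30.3% for Pdhb. Of the 39 genes, 17 had no shared window, among them Hk1, Pfkp and Slc2a3. Among 52 genes sharing 25% or more of the windows of 1 of the 39, 9 had a mean of 30 or more estimated counts. These were Eno1b (487 counts) and Gm4735 (299) for Eno1, Pgk1-rs7 (170) and Gm5537 (41.5) for Pgk1, Gm3839 (59.3) and Gm10359 (31.9) for Gapdh, Gm6560 (47.9) for Pkm, Gm6123 (34.7) for Pdhb and Pgam1-ps2 (33.8) for Pgam1. Counts were also summed over all genes sharing 25% or more of the windows, whatever their level. These copies are counted apart from the enzyme genes. Their sums equalled 2.86% of the count of Eno1 (2 genes) and 5.60% of that of Pgk1 (2 genes). For Gapdh the sum over 44 genes, most of them not named above, equalled 7.23% of its count. How reads were divided between such copies rests on the authors' estimate, and Gm5537 for one had 120, 3.72 and 0.570 counts in replicates 1, 2 and 3.

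The deposited data also include a smaller table of whole-number counts, made in a way that the files do not state, and it held 30.2% of the estimated counts over all genes. Its counts levelled off for abundant genes: over all genes, the median share of the estimated counts was 51.1% for 4981 genes with a mean of 100 to 1000 estimated counts, and 10.8% for 269 genes with 10000 or more. Ratios of abundant genes taken from it may therefore be compressed. Among the genes with many shared windows, Gpi1, Pdhb and Ldhb (25.3, 30.3 and 27.0% shared) held 24.3, 25.4 and 34.3% of their estimated counts in it. Those with larger shares of such windows were very low there. Pgam1 had 2, 4 and 6 counts there against 4123, 3659 and 3505 estimated counts. Pgk1 had 33, 26 and 34 counts, Gapdh 66, 78 and 69, and Eno1 464, 483 and 483. For the 8 genes with more than 25% shared windows the second table held a median of 3.78% of the estimated counts (range 0.106 to 34.3%), and for the 17 without shared windows 49.96% (range 27.9 to 88.4%). Within the latter, 7 genes with a mean of 1000 or more counts lay between 27.9 and 52.8%. Ldha, with 19.1% shared windows, had 1327, 1328 and 1309 counts in the second table, or 5.60% of its estimated counts. In that smaller source, 13 of 37 genes tested differed between libraries by the test described next, beside 23.2% of 10885. Taken from it without scaling to length, the lead of Pgam1 over Pgam2 turned (log2 ratio -3.55). Eno1 there stood a log2 ratio of 0.38 above Eno3. The matching log2 ratios of estimated counts, also not scaled to length, were 6.47 and 6.03. Eno1 was among both the abundant genes and those with many shared windows.

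**Figure D4:**
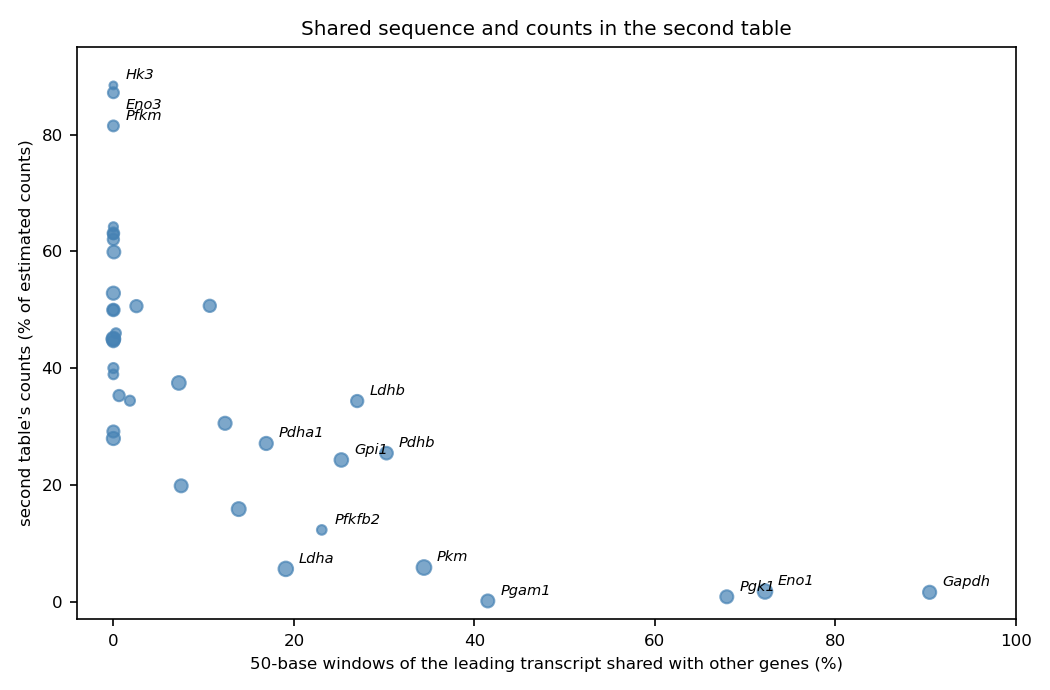
Each point is 1 of the 38 genes that had at least 30 counts over the libraries, with the share of its 50-base windows that recur in other genes on the x axis and the second table's counts as a percentage of the estimated counts on the y axis (larger points, higher mean count). Pgam1, Pgk1, Eno1 and Gapdh lie under 2% on the y axis, and Hk3, Eno3 and Pfkm above 80%.

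Exons of 17 of the 39 genes overlap an exon of another gene, and 12 overlapping genes had a mean of 30 or more counts. The strand setting of the counting is not given in the sources used here, and without strand the reads in an overlap cannot be told apart. Overlapping genes with many counts were Senp1 at Pfkm (2717, an overlap of 18 bases), Ikbkg at G6pdx (2277, 418 bases), Pitrm1 at Pfkp (1853, 748 bases) and Gm49759 at Pkm (779, 767 bases on the same strand). Yod1 at Pfkfb2 (379, 154 bases) had more counts than Pfkfb2 itself (130).

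The libraries were compared gene by gene with Pearson's chi-square test on rounded estimated counts against library totals. Of the 38 genes tested (all but Pklr), 24 differed between libraries at an adjusted p under 0.05, beside 44.9% of 14641 genes tested. Among genes with a mean of 1000 or more counts, which the test resolves best, 18 of 24 of the glycolysis and pentose phosphate genes were called, beside 66.6% of 4456. The differences were small: the highest library exceeded the lowest by a median of 1.22 times over the 24, with a range of 1.08 to 1.79, beside a median of 1.27 over all called genes. Of the 24, replicate 1 was highest for 13, replicate 2 for 3 and replicate 3 for 8, while replicate 2 was lowest for 15. The counts by highest library were the same with TMM and DESeq2 scaling. Among all 38 tested here, called or not, replicates 1, 2 and 3 were highest for 18, 8 and 12. Replicate 2 was lowest for 20 of the 38 (19 with TMM or DESeq2 scaling). Over all tested genes, called or not, 34.2, 33.0 and 32.9% were highest in replicates 1, 2 and 3, and 35.3% were lowest in replicate 2. Markers of cell types were tested in the same way, beside 44.9% of all genes called. Those that differed were 7 of 10 erythroid, 4 of 6 myeloid and 3 of 7 B cell markers tested. So did 2 of 3 CD8 T and NK cell markers and 6 of 7 regulatory T cell markers. All 7 of the erythroid markers that differed were highest in replicate 2, and 6 of them were lowest in replicate 1. All 4 of the myeloid markers that differed (Csf1r, Adgre1, Fcgr3 and Cd68) were lowest in replicate 2, by ratios of 1.65 to 2.13. Markers of other cells also differed. All 3 such B cell markers were highest in replicate 3, and both such CD8 T and NK cell markers were lowest in replicate 1. Of 6 such regulatory T cell markers, 4 were lowest in replicate 3 and 2 in replicate 2. The part of such cells in the differences was not tested.

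Hif1a, which encodes the oxygen-sensitive subunit of a transcription factor that activates many glycolysis genes, differed most. At chr12:73901375-73947530, it was at 225, 119 and 139 TPM, with 604, 336 and 371 CPM in replicates 1, 2 and 3. Replicate 1 stood apart, 1.79 times replicate 2, with a chi-square statistic of 1989 on 2 degrees of freedom. Without replicate 1 the ratio was 1.10 (chi-square test on counts, adjusted p = 1.11e-07). In the second table it had 3999, 2963 and 2975 counts, a ratio of 1.33 after scaling, in a table that levels off at counts as high as those of Hif1a (a median of 29.2% of the estimated counts for 465 genes with 5000 to 10000). Its leading transcript Hif1a-201 held 77.5, 80.3 and 79.0% of its TPM, so that the share changed little while the level did.

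Slc2a6, with a mean of 85.7 counts, had the next ratio, 1.71 (chi-square test on counts, adjusted p = 0.00726). Among called genes with a mean of 100 or more counts, the next were Pdk3, Pfkfb2, Slc16a3 and Tpi1. Pdk3 was at 50.5, 32.8 and 35.8 CPM in replicates 1, 2 and 3 (ratio 1.54, chi-square test on counts, adjusted p = 1.24e-19). Slc16a3 was at 37.9, 26.1 and 26.2 CPM (ratio 1.45, chi-square test on counts, adjusted p = 4.50e-13). Both were high in replicate 1 and nearly equal in the others; without replicate 1 the adjusted p of the same test on counts was 0.221 for Pdk3 and 0.960 for Slc16a3. Tpi1 was at 213, 147 and 190 CPM (ratio 1.45, chi-square test on counts, adjusted p = 7.51e-55), low in replicate 2. Pfkfb2 was at 5.29, 6.41 and 7.84 CPM (ratio 1.48, chi-square test on counts, adjusted p = 0.0194), and its call was lost without replicate 1 and without replicate 3. In the second table Pfkfb2 had 12, 19 and 17 counts. Neither Pfkfb2 nor Slc2a6 was called there (chi-square test on counts, adjusted p = 0.571 and 0.141), whereas Pdk3, Slc16a3 and Tpi1 were.

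**Figure D5:**
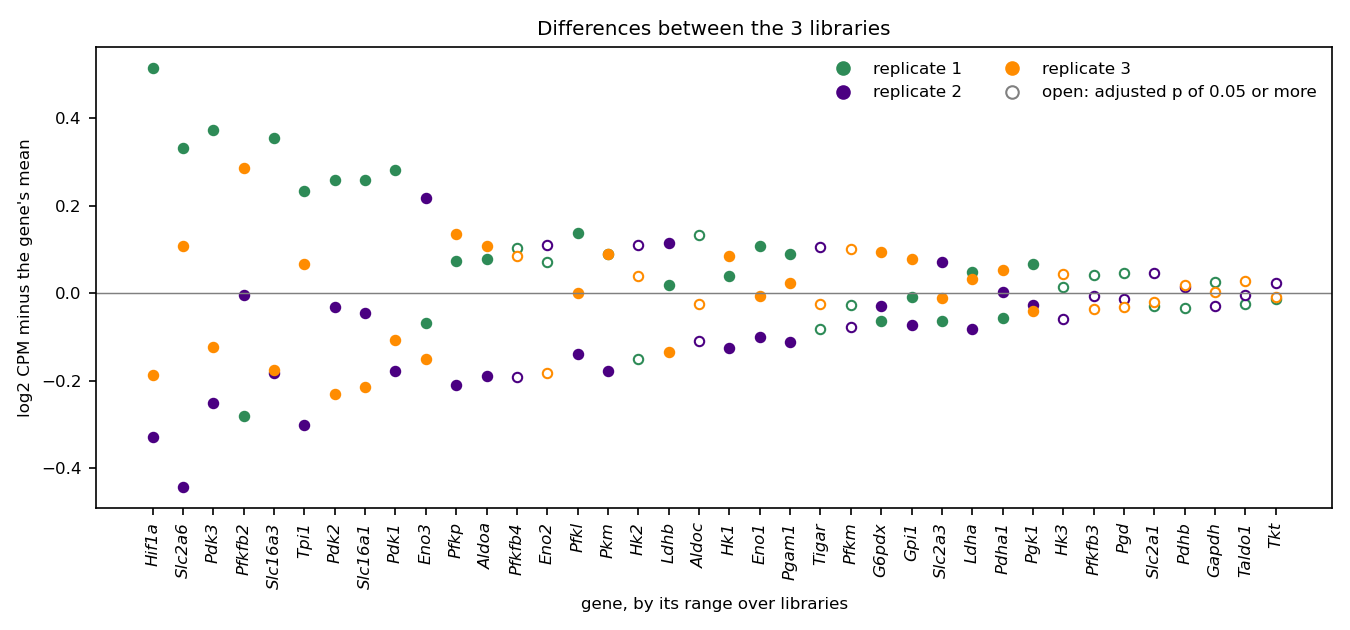
Log2 CPM of each gene minus its mean over the 3 libraries, for the 38 genes tested, in order of range; filled points mark the 24 genes with an adjusted p under 0.05 in the chi-square test on counts. Replicate 1 is highest for Hif1a, Slc2a6, Pdk3, Slc16a3 and Tpi1, and replicate 2 is lowest for most of the abundant enzymes.

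When each library was left out in turn, 7 of the 24 genes were called every time, Eno1, Gpi1, Hif1a, Pfkl, Pfkp, Slc16a1 and Tpi1. Calls also fell over all genes tested, from 44.9% to 30.3, 27.7 and 34% without replicates 1, 2 and 3. Without replicate 2, 8 calls were lost, those of Aldoa, Eno3, Hk1, Ldha, Pgam1, Pkm, Slc2a3 and Slc2a6. Pkm was at 1599, 1329 and 1599 CPM, and the ratio between replicates 1 and 3 was 1.00. Without replicate 1, 8 were lost, those of Pdha1, Pdk1, Pdk2, Pdk3, Pfkfb2, Pgk1, Slc16a3 and Slc2a6, among them all 3 kinases of pyruvate dehydrogenase. Without replicate 3, the calls of G6pdx, Ldhb, Pdha1 and Pfkfb2 were lost. Gapdh, Taldo1, Tkt, Pgd, Pdhb and Slc2a1 were not called, and their highest library exceeded the lowest by at most 1.06 times.

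Genes around Hif1a were examined from lists, whose counts of called genes stand beside the same 44.9% of all genes tested. Of 9 other genes of the HIF pathway, 7 reached 1 TPM in every library, led by Egln2, an oxygen sensor, at 68.8 ± 1.55 TPM, Arnt, the partner of Hif1a, at 50.8 ± 2.07 TPM and Hif1an, an inhibitor, at 38.8 ± 2.30 TPM. The related Epas1 stayed at 0.470 to 0.730 TPM. In this list 3 of 9 genes differed between libraries, numbers too small to set against that share of all genes. Highest in replicate 1, as were 34.2% of all genes tested, were 2 of them, Egln3 (8.17, 4.72 and 6.26 TPM) and Vhl (30.8, 26.1 and 24.7 TPM). Among HIF targets outside glycolysis, 11 of 15 were detected, led by Bnip3l (414 ± 24.6 TPM), Higd1a (99.0 ± 7.61 TPM) and Kdm3a (71.9 ± 0.693 TPM). Vegfa had 5, 3 and 0 counts. Of 12 of these targets tested, 6 differed between libraries, near the share of all genes, 3 highest in replicate 1 and 3 in replicate 2 (33.0% of all genes tested).

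The core of the HIF binding motif was searched as ACGTG or GCGTG on both strands, from 250 bases before to 50 after each RefSeq start (GRCm38.p6). Of the 39 genes, 38 are in the table, with 56 starts, and 33 of them (86.8%) had a match at 1 or more starts. By the same count, 68.7% of 8288 detected protein-coding genes had a match, and 46.7% of all 27025 genes in the table. The genes here had 1.47 starts each and the detected genes 1.28, and by start the shares were 76.8% and 62.7%, beside 43.8% of all 32851 promoters. ACGTG alone was in promoters of 21 of the 38 (55.3%), beside 30.1% of the detected genes. This word is part of CACGTG, the E-box bound by Myc among others, found in 7 of the 38 (18.4%) and in 12.2% of the detected genes. Gpi1, Tpi1, Eno2, Pklr and Tigar had no match. Ldha, shown as the gene with the highest level, has 2 starts. The promoter at chr7:46846832-46847131 (plus strand) had 2 matches and no CACGTG. The promoter at chr7:46845554-46845853 (plus strand), printed below, had 7 matches, in capitals, of which overlapping ones form the words CACGTG. Which start the Ldha RNA came from was not tested.
Ldha promoter: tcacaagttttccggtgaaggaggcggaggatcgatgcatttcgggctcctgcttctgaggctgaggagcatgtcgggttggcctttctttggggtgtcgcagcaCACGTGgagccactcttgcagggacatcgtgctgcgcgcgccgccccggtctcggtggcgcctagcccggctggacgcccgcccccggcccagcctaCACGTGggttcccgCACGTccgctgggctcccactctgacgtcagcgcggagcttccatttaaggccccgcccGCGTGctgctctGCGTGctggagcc

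Other regulators of glycolysis were led by Txnip, an inhibitor of glucose uptake, at 628, 777 and 788 TPM, lowest in replicate 1. Trp53, which encodes the tumour suppressor p53, was at 197 ± 7.13 TPM and Myc, which encodes an activator of many glycolysis genes, at 186 ± 9.83 TPM. Of this list 9 of 10 genes reached 1 TPM in every library, and 7 of 9 tested differed between libraries, beside 44.9% of all genes tested and 66.6% of those with a mean of 1000 or more counts. The genes that carry pyruvate into mitochondria and complete the dehydrogenase complex were all detected (8 of 8), with Mpc1 and Mpc2, the pyruvate carrier, at 141 ± 9.73 and 118 ± 11.0 TPM and Dld at 85.7 ± 2.47 TPM; 3 of 8 differed between libraries, near the 44.9% of all genes. Genes of gluconeogenesis, the reverse route, were mostly not detected. Of 8, only Pck2 (34.5 ± 3.88 TPM), G6pc3 (30.7 ± 2.71 TPM) and Pcx (3.16 ± 0.383 TPM) were detected, and Fbp1, Fbp2, G6pc and G6pc2 had no count. Of the 3 that were detected, 2 differed between libraries, both highest in replicate 2, numbers too small to set against that share.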

How the data were processed

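Polyadenylated RNA was measured in 3 libraries of 1 biosample. The authors deposited, per library, gene and transcript tables made on mm10 with GENCODE M21 (per the deposited listing of files), holding estimated counts (expected counts, which need not be whole), TPM and FPKM. The deposited second gene table holds whole-number counts for GENCODE M4 genes. Aligner, quantifier version and strandedness: not given in the sources used here. Rows that name no gene (0.231, 0.271 and 0.189% of counts in replicates 1, 2 and 3) were left out. Members and gene lists were chosen with earlier results of these data known.

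Levels are deposited TPM; ratios used TPM + 0.1. Library differences used Pearson's chi-square test (2 degrees of freedom) on rounded estimated counts, with p-values adjusted by the Benjamini-Hochberg method over all genes that had at least 30 counts in sum. The test was tested on simulated counts with counting error only and with changed levels in some genes. These counts held no spread from library preparation or from dividing reads among copies. They therefore cannot show how the test behaves with such spread. Named genes were every member, the 3 highest of each related list, relatives above a member, near-identical copies with a mean of 30 or more counts, and the 5 called members with the largest ratio and a mean of 100 or more counts; members whose calls were lost, overlapping genes and other genes at or near 0 were named after their values were seen. Alternatives were other thresholds, pseudocounts, scalings, count filters, a deviance statistic, FPKM, transcript counts, the second table, added copies, a shorter promoter window and leaving out each library. Some genes that the lists hold are not reported here; they stay in the counts. Intervals, floors and p-values cover counting error only. TMM factors came from edgeR 4.0.16 and size factors from DESeq2 1.42.0 in R 4.3.3. All else ran in Python 3.11.15 with scipy 1.17.1, pandas 2.3.3 and numpy 2.4.6, and figures in matplotlib 3.10.9.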

Additional observations from a re-analysis of the deposited data

How the results depend on the processing

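Between 32 genes (threshold of 5 TPM) and 38 genes (0.5 TPM, or the mean over libraries) were detected under the alternatives, beside 37. The second gene table called 13 genes as differing between libraries in place of 24, beside 23.2% of the 10885 genes tested there. All 13 were among the 24. Without replicates 1, 2 and 3 in turn, 16, 16 and 20 genes were called, beside 30.3, 27.7 and 34% of all genes tested. TMM and DESeq2 scaling and the deviance statistic each called 24, beside 44.7 to 45% of all genes tested. With a summed count of 300 or more, 23 of 36 were called, beside 56.9%. With no filter on counts, 24 of 39 were called, beside 20.1%. The median level was 48.4 as FPKM, 87.0 TPM over the 37 detected genes and 50.9 TPM with protein-coding transcripts alone, an alternative chosen after the data were seen. The leading isoenzyme kept its lead in every library at 9 to 12 of the 12 steps. The log2 ratio of Slc16a3 to Slc16a1 turned to -0.91 on unscaled estimated counts and to -0.44 in the second table. Pdk1 against Pdk3 turned to -0.38 in the second table and -1.88 with protein-coding transcripts alone, and Pgam1 against Pgam2 to -3.55 in the second table. The unscaled estimated counts and the counts of the second table both leave out transcript length. On unscaled estimated counts the log2 ratio was 0.74 for Pdk1 to Pdk3 and 6.47 for Pgam1 to Pgam2. The causes of the turned ratios were not tested. The M2 share of Pkm stayed between 91.1 and 93.4%, and the share of genes with a HIF motif was 84.2% in the shorter window, beside 58.7% of detected protein-coding genes. Depth limits what can be said of genes with few counts, such as Hk3 and Pklr. No paired analysis was possible because the libraries form 1 group.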
